A study of Mus musculus with 6 samples.

Results

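The comparison described here sets fibroblasts given Gadd45a against fibroblasts given G39A, a form of Gadd45a that the labels call a negative mutant, within each replicate number. It uses 4 of the 6 arrays of the study, namely the 2 arrays labelled Gadd45a and the 2 labelled G39A. The other 2 arrays, of cells given Flag, entered only the estimate of spread and are quoted where they place a value. All cells were mouse embryonic fibroblasts (MEFs), primary cells of the embryo's connective tissue, infected with virus for the factors abbreviated SKO, kept in medium with serum and LIF for 6 days and profiled at day 8 of reprogramming. SKO is not spelled out in the labels, and the G39A and Flag cells carried it as the Gadd45a cells did. RNA was read on 1-colour Agilent arrays. Nothing in the labels tells whether replicates 1 and 2 are independent cultures. The p-values therefore reflect only the spread between these arrays, which may be technical.

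Gadd45a is a small nuclear protein that cells make after DNA damage and other stress. It binds the p21 inhibitor Cdkn1a, the replication clamp Pcna, the kinase Cdk1 and the stress kinase kinase kinase Map3k4, and it has been linked to growth arrest, to p38 and JNK signalling, to DNA repair and to the removal of DNA methylation. During reprogramming, fibroblasts are known to lose mesenchymal genes and to gain epithelial genes before the pluripotency network is switched on. A mutant set beside the wild-type protein asks which expression differences need the unaltered protein, with SKO infection and culture shared.

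Values are processed signals, which are background-subtracted spot intensities, and differences are log2 values after each array's 75th percentile had been subtracted. That percentile was 9.74 (log2) on the Gadd45a replicate 1 array, 9.90 on the G39A replicate 1 array, and 9.55 and 9.61 on the replicate 2 arrays of Gadd45a and G39A. A difference therefore lies slightly above the log2 ratio of the printed signals. A positive difference means a higher signal in Gadd45a. A gene counted as measured when its probe was marked well above background on all 4 arrays, which held for 14116 of the 15125 genes tested. All 3 arrays of replicate 2 shared a slide and a scan. In replicate 1 the Gadd45a and Flag arrays shared a slide, and the G39A array lay on another slide and was scanned apart. In replicate 1 the slide and the group therefore cannot be told apart, and the replicate 2 difference lies within 1 slide. The replicate numbers differed far more than the groups: across genes, Gadd45a and G39A signals correlated at 0.994 in replicate 1 and 0.995 in replicate 2, whereas replicates 1 and 2 of a group correlated at 0.916 to 0.918. The Dlk1, H19, Mest and Pdgfra values below show this difference, and it makes many groups overlap even where both within-replicate differences agree in size.

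By the smaller of its differences in the replicates, the placental lactogen genes Prl3d2 and Prl3d1, the kallikrein Klk1b11 and the glutamate transporter Slc17a6 stood highest in Gadd45a. On the lower side stood the calpain Capn6, the p38 kinase kinase Map2k6, the metal reductase Steap4, the oestrogen receptor Gper1 and the receptor Plxdc1. No measured gene of the pluripotency list reached 1.5-fold in both replicates. No gene passed limma's test with the replicate number as a block (0 of 15125 at an adjusted p under 0.05, 0%). The lowest adjusted p was 0.0500126 and was shared by Gm2861, A830010M09Rik and AK081527, 3 identifier-only names that were dim on both arrays of a group. At an unadjusted p under 0.05 the same model had 1433 genes, 611 higher and 822 lower. Its median standard error was 0.115, against 0.309 without the block.

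Among the 14116 measured genes, 65 were at least 1.5-fold higher in Gadd45a in both replicates (0.46%) and 46 were at least 1.5-fold lower in both (0.326%). By contrast 16 passed 1.5-fold in opposite directions. At 2-fold the counts were 8 higher (0.0567%), 5 lower (0.0354%) and 0 opposite. Of the 65 higher genes 54 had an unadjusted p under 0.05, and of the 46 lower genes 45, where 3.78% and 4.79% of measured genes did. These genes were picked by their differences on the same arrays. The choice itself favours a small p and groups that do not overlap, so neither share is separate support. In 57 of the 65 the Gadd45a signal was above both Flag and G39A in each replicate, and in 43 of the 46 it was below both. The side relative to G39A is fixed by the choice, and the same Gadd45a arrays enter the comparison with Flag. Over all 14116 measured genes Gadd45a was the highest of the 3 arrays for 3970 in replicate 1 and 5737 in replicate 2. It was the lowest for 4895 and 5522. The 4 arrays fell into groups that did not overlap for 35 of the 65 and 25 of the 46, against 6.18% of all measured genes with Gadd45a wholly above and 6.95% with it wholly below. Across all measured genes the replicate 1 and replicate 2 differences correlated at r = 0.28, a description over genes that are not independent, and their SDs were 0.29 and 0.28.

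**Figure D1:**
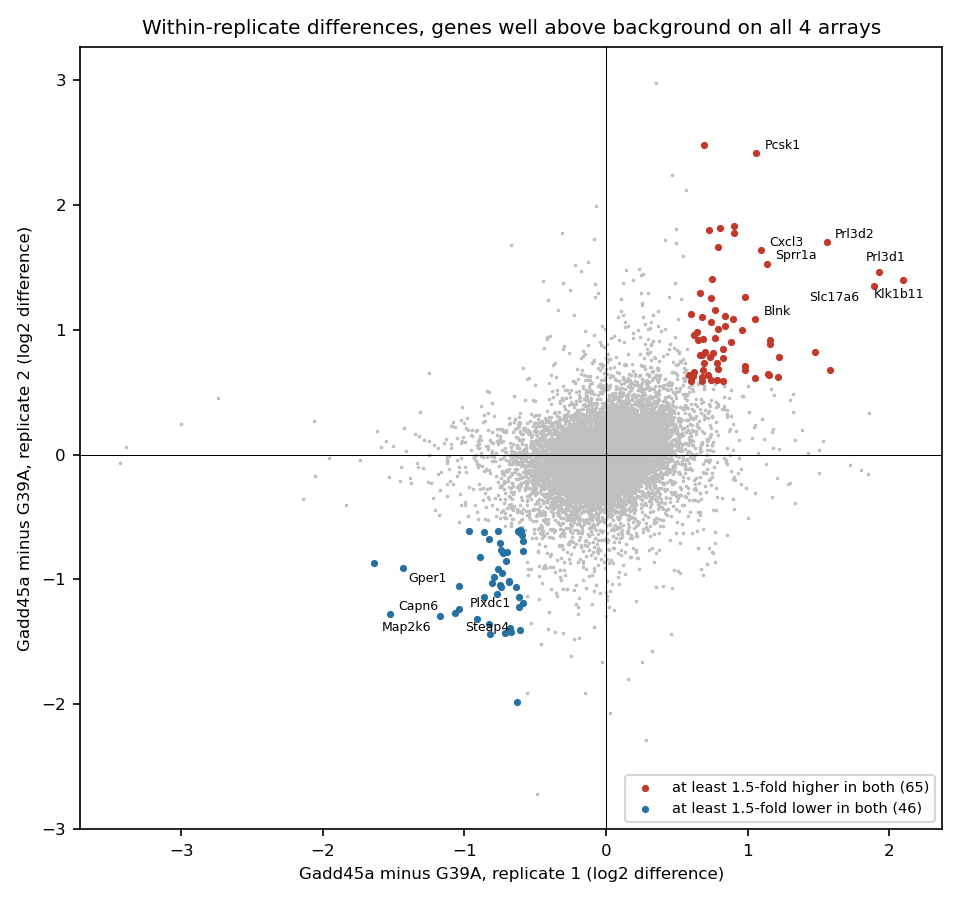
Each point is 1 of 14116 genes measured on all 4 arrays, placed by the log2 difference of Gadd45a minus G39A in replicate 1 (horizontal axis) and in replicate 2 (vertical axis). Red points are the 65 genes at least 1.5-fold higher in both replicates, blue points the 46 at least 1.5-fold lower in both, and the 13 genes past 2-fold in both are named.

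Prl3d1 and Prl3d2 encode placental lactogens, hormones of trophoblast giant cells, and their near-identical copies may be read by 1 another's probes. The Prl3d1 probe (chromosome 13, 27192011 to 27192070, mm9) gave 2624 and 258 in Gadd45a replicates 1 and 2 and 769 and 97.5 in G39A, a difference of 1.92 and 1.47. The Prl3d2 probe (chromosome 13, 27219216 to 27219275) gave 1941 and 187 in Gadd45a against 732 and 59.9 in G39A, a difference of 1.56 and 1.71. Gadd45a was above G39A within each replicate for both genes, while the groups overlapped across replicates, with much higher signals in replicate 1. Prl2c5, a proliferin, gave 545 and 8143 in Gadd45a and 324 and 2383 in G39A (0.90 and 1.83). Its Flag signals were 991 and 1480, so in replicate 1 Flag was the highest of the 3 arrays, and its signals were higher in replicate 2 where those of the lactogens were lower. Prl, the pituitary hormone prolactin, was bright on 3 of the 4 arrays and shared the lowest adjusted p among genes with a name (0.112) with Cdca7l, a MYC partner that was dim on both Gadd45a arrays. It gave 67.0 and 61.9 in Gadd45a and 24.4 and 22.2 in G39A, a difference of 1.61 and 1.54 whose groups did not overlap.

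Several enzymes, transporters and signalling genes followed. Klk1b11, a glandular kallikrein protease, gave 188 and 79.1 in Gadd45a and 49.0 and 31.2 in G39A (chromosome 7, 51255119 to 51255178), 4.27-fold and 2.64-fold higher after scaling. Slc17a6, the vesicular glutamate transporter of excitatory neurons, gave 727 and 374 against 218 and 153 (chromosome 7, 58924553 to 58924612; 1.89 and 1.35). For both genes each Gadd45a array was above each G39A array, and the Flag arrays, at 111 and 38.9 for Klk1b11 and 201 and 149 for Slc17a6, lay below Gadd45a in each replicate. The mean difference of Slc17a6 was 1.62 ± 0.16 (SE, n = 2 per group; limma adjusted p = 0.241). Pcsk1, a prohormone convertase, gave 170 and 142 against 90.8 and 27.7 (1.06 and 2.42), again with no overlap. Blnk, an adaptor of B cell receptor signalling, gave 622 and 112 against 333 and 55.0. Its differences of 1.05 and 1.09 were nearly equal, and its adjusted p of 0.212 was the lowest among the higher genes measured on all 4 arrays. Star, the cholesterol carrier of steroid-making cells, differed by 1.16 and 0.89, and Vwc2, a secreted BMP antagonist, by 0.90 and 1.09. Galnt3, which starts mucin-type glycosylation, was 1.94-fold and 1.99-fold higher. Apba1, a neuronal adaptor, differed by 1.16 and 0.91, Chrna1, the muscle acetylcholine receptor subunit, by 0.98 and 1.26, and Slc6a12, a betaine and GABA transporter, by 0.91 and 1.77. For Apba1 the G39A signals of 28.6 and 28.3 stood apart, and Flag (50.3 and 70.1) lay nearer to Gadd45a (57.3 and 51.0).

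Sprr1a encodes a small proline-rich protein of the cornified envelope, the cross-linked shell of skin keratinocytes. It gave 1019 and 218 in Gadd45a and 516 and 78.6 in G39A, a difference of 1.14 and 1.53 (mean 1.33 ± 0.15, SE; limma adjusted p = 0.359). Lce1i (0.88 and 0.90), Lce1h (0.84 and 1.11), Lce1f (0.80 and 1.81) and Lce1g (0.62 and 0.63), late cornified envelope genes of 1 cluster with similar sequences, were also among the 65, and their probes may share targets and so count as 1 signal. Lce1b of the same family differed by -0.90 and 0.05. Of the epithelial list, 15 of 35 genes were measured; 8 (53.3%) were higher in both replicates, against 0 lower in both, with medians of 0.15 and 0.39 (all measured genes: 31.7% higher in both, 28.7% lower in both, medians 0.01 and 0.00). Pkp3, a desmosome plaque protein, gave 795 and 60.8 against 517 and 47.3, and Spint1, an inhibitor of membrane proteases, 277 and 35.7 against 230 and 24.5. Krt18, a simple-epithelium keratin, gave 1016 and 1735 against 909 and 898. Cdh1 and Epcam, the defining epithelial adhesion genes, were well above background only in replicate 1, where Gadd45a was below G39A: 366 against 482 for Cdh1 and 559 against 715 for Epcam. Other members bright on both replicate 1 arrays, but not on all 4, were also lower there: Cldn3 (434 against 634), Cldn7 (115 against 158), Tjp3 (40.5 against 80.2) and Dsg2 (64.3 against 89.8). Dsc2 (61.6 against 71.8) and Ocln (184 against 208) were slightly lower, and Pkp1 (6258 against 4270) was higher. The 0 lower in both thus covers only the 15 measured members. The Lce1 genes and Krt18 were named after their values had been seen.

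On the lower side Capn6 had the lowest adjusted p of any gene measured on all 4 arrays (limma, 0.202). It encodes a calpain that lacks protease activity and binds microtubules. Its probe (chromosome X, 140237100 to 140237159, mm9) gave 243 and 1093 in Gadd45a replicates 1 and 2, 778 and 2771 in G39A and 699 and 3385 in Flag. Within each replicate Gadd45a was the lowest of the 3 arrays, by 1.53 and 1.28 against G39A (mean -1.40 ± 0.11, SE, n = 2 per group), and the groups overlapped across replicates. Map2k6, which phosphorylates p38, gave 212 and 99.8 in Gadd45a and 533 and 256 in G39A (chromosome 11, 110374803 to 110374862). The groups did not overlap, and the Flag signals of 470 and 328 were close to those of G39A. The mean difference was -1.24 ± 0.14 (SE; limma adjusted p = 0.341). Plxdc1, a receptor first known from tumour endothelium, gave 188 and 461 against 428 and 1133, -1.04 and -1.24 (limma adjusted p = 0.24). Steap4, an iron and copper reductase of adipocytes and inflamed tissue, gave 104 and 37.3 against 243 and 93.8. Gper1, a membrane receptor for oestrogen, gave 79.6 and 36.8 against 182 and 80.0. For both genes each difference was past 2-fold, at -1.07 and -1.27 for Steap4 and -1.04 and -1.06 for Gper1.

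Bright genes with smaller but even differences included Gamt, which makes creatine, and Paqr4, a membrane protein of the progestin and adipoQ receptor family. Gamt gave 1092 and 1526 in Gadd45a and 2204 and 3516 in G39A (-0.86 and -1.14), and Paqr4 955 and 652 against 1804 and 1285 (-0.77 and -0.92). Each Gadd45a array was below each G39A array for both. C1s1, a complement protease, gave 1469 and 931 against 2901 and 2495 (-0.83 and -1.36), with no overlap. Stxbp6, a SNARE-binding protein, differed by -0.91 and -1.32, Pex10, a peroxisome ubiquitin ligase, by -1.43 and -0.91, Sgip1, an endocytic adaptor, by -1.64 and -0.87, and Mamstr, a co-activator of muscle transcription factors, by -0.80 and -1.03. In replicate 1 the Flag and Gadd45a arrays were close for Pex10 (145 and 147, beside 441 in G39A) and Sgip1 (64.8 and 52.6, beside 182), and the G39A array, on its own slide, stood apart. In replicate 2 Flag was instead close to G39A for both, at 193 and 181 for Pex10 and 162 and 161 for Sgip1. Omd, a matrix proteoglycan of bone, differed by -0.79 and -0.98, Ptgds, a prostaglandin synthase, by -0.75 and -1.05, and Rtn4rl1, a Nogo receptor relative, by -0.74 and -0.76. Of the 46 past the 15 largest, and chosen after their values had been seen, Eln, the elastic fibre protein, differed by -0.63 and -1.99, Islr, a marker of mesenchymal stroma, by -0.68 and -1.39, and the paralogs Selenbp1 (-0.68 and -1.02) and Selenbp2 (-0.74 and -1.06), whose probes may cross-read, had like values.

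**Figure D2:**
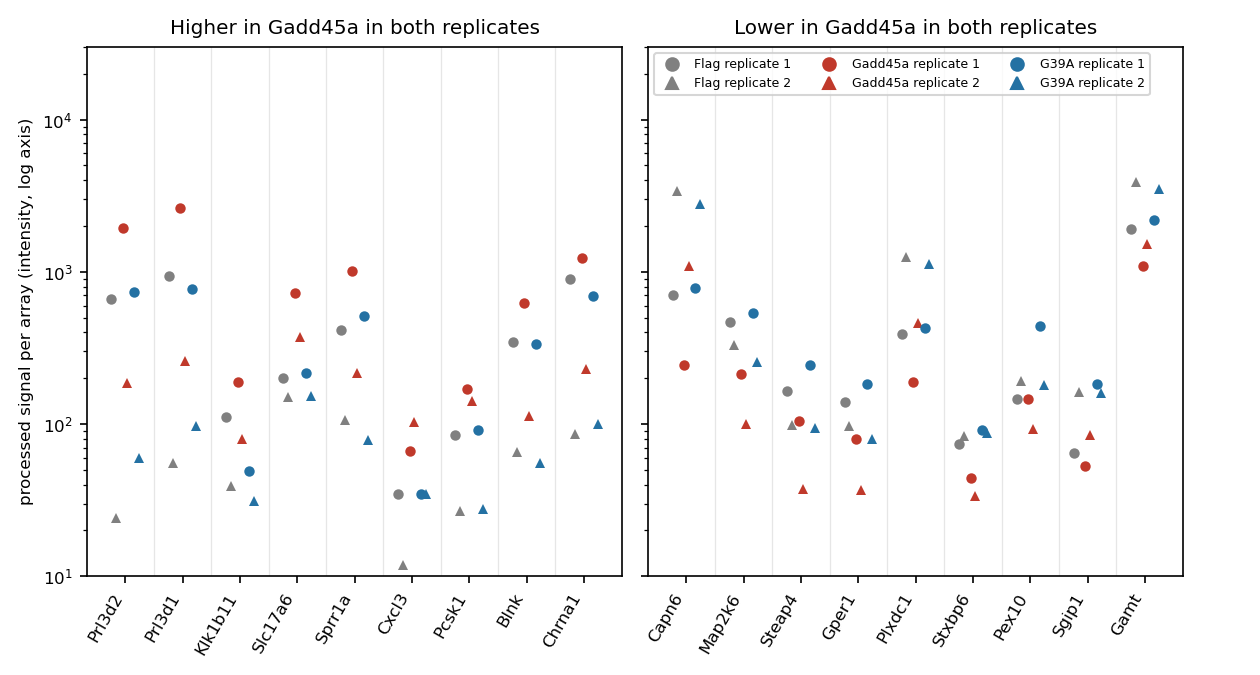
Processed signal (intensity, log axis) on each of the 6 arrays for the 9 genes with the largest repeated differences each way; grey is Flag, red Gadd45a and blue G39A, circles replicate 1 and triangles replicate 2. Within each replicate the red point of every gene lies above the blue one in the left panel and below it in the right panel, as with Capn6 at 243 against 778 and 1093 against 2771.

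Of 17 measured genes of the chemokine and cytokine list (24 listed), 8 (47.1%) were higher in both replicates, against 3 (17.6%) lower in both, beside 31.7% and 28.7% of all measured genes. In each replicate 11 of the 17 were higher, with medians of 0.10 and 0.33. None passed the threshold in limma, and 4 had an unadjusted p under 0.05 on the higher side and 0 on the lower, beside 3.78% and 4.79% of all measured genes. The 4 were Il6, Il11, Ccl2 and Ccl7. Il6, the acute-phase cytokine that signals through STAT3, gave 532 and 986 in Gadd45a and 391 and 470 in G39A (0.60 and 1.13). Il11, its relative in the same receptor family, gave 1789 and 1893 against 1184 and 746 (0.75 and 1.40). For both the 2 Gadd45a arrays lay above both G39A arrays, and the Flag arrays (375 and 411 for Il6, 1575 and 737 for Il11) lay below Gadd45a in each replicate. The monocyte attractants Ccl2, at 34939 and 51089 against 28545 and 29587, and Ccl7, at 27628 and 35554 against 25392 and 20124, were among the brightest genes of the list and did not overlap either. Limma's adjusted p for these 4 genes was 0.477 to 0.504. Cxcl3, a neutrophil attractant outside the list, gave 66.0 and 103 against 34.4 and 34.5 (1.09 and 1.64). Ccl20 (0.19 and 1.40) and Ccl8 (0.05 and 0.95) differed mainly in replicate 2, and Cx3cl1 (-0.04 and -0.84) and Il1rn, the interleukin 1 receptor antagonist (-0.36 and -0.17), lay on the other side.

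Of 24 measured genes of senescence and plasminogen activation, the programme of arrested fibroblasts, 14 (58.3%) were higher in both replicates, against 2 (8.33%) lower in both, beside 31.7% and 28.7% of all measured genes, with medians of 0.16 and 0.25. None passed the threshold in limma, and 5 had an unadjusted p under 0.05 on the higher side and 1 on the lower. Cdkn2a, whose products block cell cycle kinases and stabilise p53, gave 771 and 2154 in Gadd45a and 564 and 1529 in G39A (0.60 and 0.56). Plaur, the urokinase receptor, gave 7532 and 5718 against 5457 and 3766 (0.62 and 0.66), and Gdf15, a stress cytokine that p53 induces, 1243 and 1264 against 960 and 910 (0.53 and 0.54). These differences were close to equal in both replicates, and the groups of Plaur and Gdf15 did not overlap (limma adjusted p = 0.439 for each of the 3). Igfbp3, which binds insulin-like growth factors, was the member lower at p under 0.05, at 36944 and 6445 against 54428 and 10624. Of 29 measured p53 targets 11 (37.9%) were higher in both replicates, against 6 (20.7%) lower in both (medians 0.01 and 0.04). Plk3, a stress kinase, gave 1404 and 1949 against 1123 and 1218 (0.48 and 0.74), Tnfrsf10b, a death receptor, differed by 0.38 and 0.39, and Ckap2, a spindle protein, by -0.69 and -0.41. Cdkn1a, the p21 inhibitor itself, gave 24024 and 25312 against 24527 and 22156 (0.12 and 0.25), and Trp53, which switches on Cdkn1a, differed by 0.02 and 0.00, with another probe of the opposite sign.

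The interferon response, an antiviral programme, had medians of 0.30 in replicate 1 and 0.31 in replicate 2. All 37 tested members of 40 were measured, and 30 (81.1%) were higher in both replicates, against 1 lower in both, beside 31.7% and 28.7% of all measured genes. None passed the threshold and 0 had an unadjusted p under 0.05 in limma either way. Gadd45a was the highest of the 3 arrays for 27 of the 37 in replicate 1 and for 34 in replicate 2. Over all 14116 measured genes it was the highest for 3970 and 5737. In replicate 2 both Gadd45a and G39A stood far above Flag (medians 2.33 and 2.01, against 0.13 and -0.17 in replicate 1), and the Flag arrays enter the model's estimate of spread. Oas2, which makes the activator of RNase L, shows this. In replicate 2 its Flag signal was 31.2, beside 218 for Gadd45a and 166 for G39A, and in replicate 1 the same order read 2194, 2833 and 2592. The differences of Gadd45a from G39A (0.28 and 0.45) were small beside that of either from Flag in replicate 2. Oasl1, an antiviral synthetase-like protein, gave 215 and 337 in Gadd45a and 141 and 158 in G39A (0.77 and 1.16). Usp18, which removes Isg15 from proteins and damps interferon signalling, gave 4677 and 7553 against 3254 and 4525 (0.68 and 0.80). Oas1a, at 3352 and 1405 against 2530 and 956, differed by 0.56 and 0.62, and Irgm1, an immunity GTPase, by 0.41 and 0.46. Ddx58, the RNA sensor RIG-I, gave 3849 and 4927 against 3343 and 3302 with no overlap. Cxcl10 (0.51 and 1.09) and Rsad2 (0.26 and 1.20) differed more in replicate 2, Isg15 (0.70 and 0.30), Bst2 (0.71 and 0.04) and Iigp1 (0.87 and -0.01) more in replicate 1, and Ifi27l2a was the member lower in both (-0.09 and -0.94). Of 13 measured genes of MHC class I antigen presentation, many of which interferon also induces, 5 (38.5%) were higher in both and 4 (30.8%) lower in both. Tap2, a subunit of the peptide transporter, gave 116 and 119 in Gadd45a against 174 and 174 in G39A (-0.43 and -0.48). Its Flag signals of 111 and 134 lay nearer to Gadd45a.

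**Figure D3:**
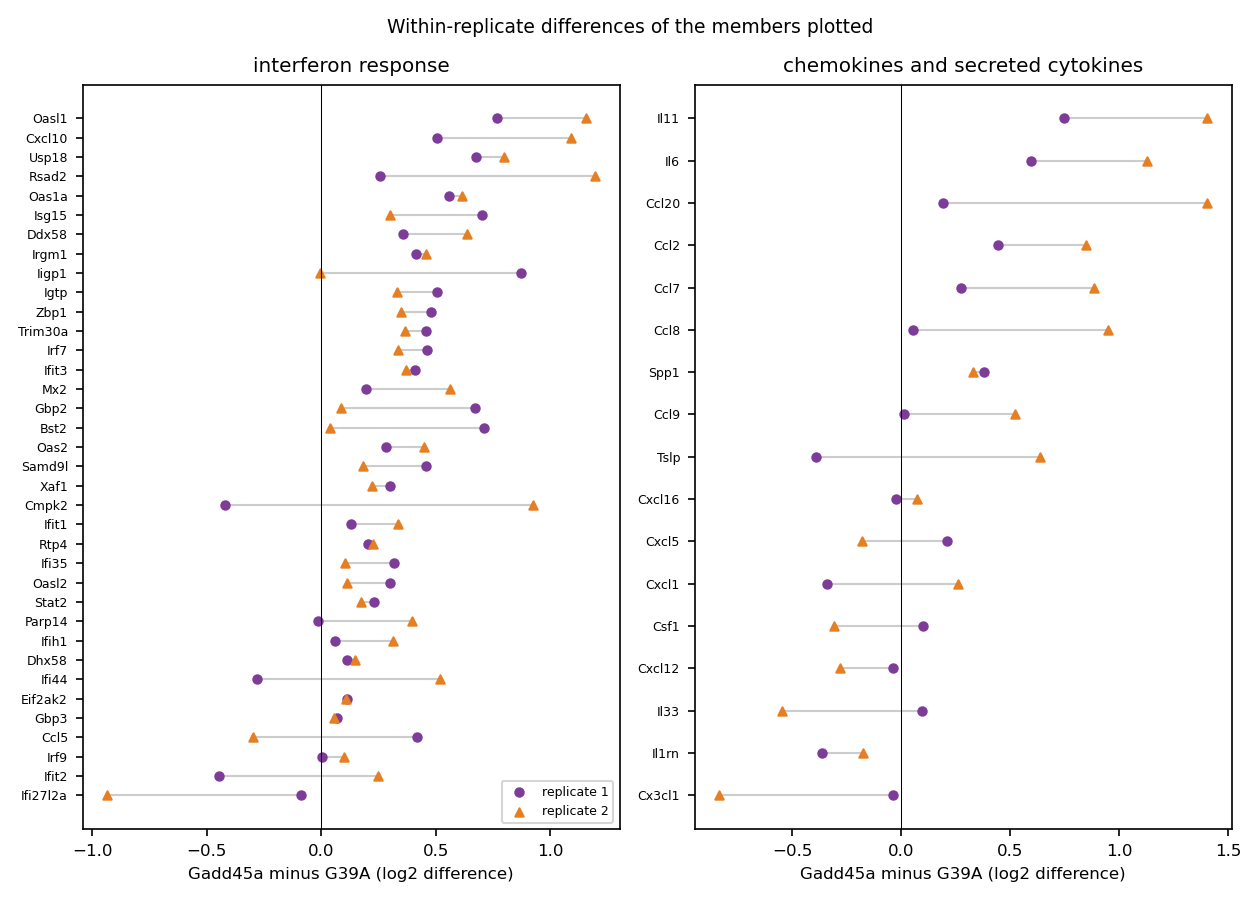
Log2 difference of Gadd45a minus G39A for 36 of the 37 measured members of the interferon list (left) and all 17 of the chemokine and cytokine list (right); purple circles are replicate 1, orange triangles replicate 2, and a line joins the pair. On the left 29 genes have both points right of 0, with Oasl1 at 0.77 and 1.16, and on the right 8 do, with Il11 at 0.75 and 1.40.

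Known response elements in the promoters of these 2 lists are described as background. The interferon list was drawn up as genes of that response, so its share of the motif does not bear on Gadd45a against G39A. Members with and without a motif were not compared. Promoter windows from 250 bases before to 50 after the start, from RefSeq (GRCm38.p6), matched 26 of the 37 interferon genes and 12 of the 17 chemokine and cytokine genes. The core of the interferon-stimulated response element, 2 copies of GAAA parted by any 2 bases and sought on both strands, was in 16 of the 26 interferon genes (61.5%), in 1 of the 12 chemokine genes (8.33%) and in 3.99% of the 27025 genes of the table. The AP-1 motif TGANTCA, which reads the same on both strands, was in 4 of the 12 chemokine genes (33.3%), in 8 of the 26 interferon genes (30.8%) and in 8.97% of all genes. A match describes letters and is not a binding site. The capitals below mark the motif, and each sequence runs along the strand of its gene. Shown are only genes higher in Gadd45a in both replicates, those of the largest repeated difference whose window held the motif. Il1rn, a chemokine-list gene with the AP-1 motif, was lower in both replicates and is therefore not shown. In Ifit3 the interferon motif lies on the opposite strand.
Oas1a, chr5:120907505-120907564, gene on the minus strand: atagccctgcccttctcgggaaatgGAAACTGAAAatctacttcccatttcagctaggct
Cxcl10, chr5:92349068-92349127, gene on the minus strand: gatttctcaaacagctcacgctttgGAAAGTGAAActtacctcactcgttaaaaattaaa
Irgm1, chr11:48871410-48871469, gene on the minus strand: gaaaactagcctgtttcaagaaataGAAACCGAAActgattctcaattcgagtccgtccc
Ifit3, chr19:34583382-34583441, gene on the plus strand: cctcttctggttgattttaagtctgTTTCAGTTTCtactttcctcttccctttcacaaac
Il11, chr7:4778208-4778264, gene on the minus strand: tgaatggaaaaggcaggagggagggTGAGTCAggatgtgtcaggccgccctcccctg
Il6, chr5:30012864-30012896, gene on the plus strand: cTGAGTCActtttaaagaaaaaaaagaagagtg
Ccl9, chr11:83578658-83578714, gene on the minus strand: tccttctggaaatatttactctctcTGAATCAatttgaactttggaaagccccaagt
The interferon motif starts at -14 from the start site in Oas1a, -24 in Irgm1, -122 in Ifit3 and -213 in Cxcl10, and the AP-1 motif at -53 in Ccl9, -98 in Il11 and -249 in Il6.

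AP-1 and early response factors were found on both sides. Of 22 measured immediate early factors and MAPK feedback genes, 9 (40.9%) were higher in both replicates, against 7 (31.8%) lower in both (medians -0.08 and 0.17). Fosl1, the Fos-family subunit Fra-1, gave 533 and 483 in Gadd45a and 436 and 363 in G39A (0.44 and 0.47), and Atf3, a stress-induced factor, 384 and 360 against 314 and 304 (0.44 and 0.30), both with no overlap. Egr1, a zinc finger factor of the growth factor response, gave 2020 and 1741 against 3916 and 2409 (-0.80 and -0.41), also with no overlap, and Egr2 399 and 125 against 682 and 179 (-0.62 and -0.45). Myc differed by 0.30 and 0.55. In the p38 and JNK list, the pathway that Gadd45a is known to activate through Map3k4, 8 of 23 genes (34.8%) were higher in both and 7 (30.4%) lower in both, beside 31.7% and 28.7% of all measured genes. The 7 were Map2k6 and the 6 that follow. Map3k4 gave 2803 and 2843 against 3529 and 3632 (-0.18 and -0.29), Map3k5 258 and 65.8 against 352 and 83.6 (-0.29 and -0.28), and Map2k3 differed by -0.37 and -0.26. Map3k1 differed by -0.12 and -0.19, the JNK gene Mapk9 by -0.13 and -0.04 and the phosphatase Dusp8 by -0.21 and -0.01. Mapkapk3, a kinase that p38 activates, was higher at 762 and 937 against 619 and 830 (0.45 and 0.24). The p38 kinases themselves differed by 0.02 and -0.09 (Mapk14) and by 0.12 and 0.72 (Mapk13). Map2k3, Map3k1, Mapk9, Dusp8, Mapk14 and Mapk13 were named after their values had been seen.

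Of 32 measured S phase and replication genes, 21 (65.6%) were lower in Gadd45a than in G39A in both replicates, against 3 (9.38%) higher in both, beside 28.7% and 31.7% of all measured genes, with medians of -0.06 and -0.29. Of 30 G2 and mitosis genes 17 (56.7%) were lower in both and 0 higher in both, with medians of -0.06 and -0.20, and all 30 were lower in replicate 2 against 17 in replicate 1. None passed the threshold in limma, and an unadjusted p under 0.05 was met by 4 S phase and 6 mitosis genes on the lower side and by 0 on the higher. Against Flag the replicates differed: Gadd45a was the lowest of the 3 arrays for 28 of the 32 S phase and 25 of the 30 mitosis genes in replicate 2, but for 11 and 14 in replicate 1. Over all 14116 measured genes Gadd45a was the lowest for 5522 in replicate 2 and 4895 in replicate 1. The median difference of Gadd45a from Flag was -0.01 (S phase) and -0.04 (mitosis) in replicate 1, beside -0.04 over all measured genes, and -0.16 and -0.18 in replicate 2, beside 0.00. Tk1, the thymidine kinase of S phase, gave 4797 and 1576 in Gadd45a and 6456 and 2370 in G39A (-0.28 and -0.53). Mcm5, a subunit of the replicative helicase, gave 3861 and 1344 against 5143 and 1790 (-0.26 and -0.35), and Rfc3, of the clamp loader, 383 and 280 against 492 and 361 (-0.21 and -0.30). The spindle checkpoint kinase Bub1 gave 773 and 531 against 1204 and 687 (-0.49 and -0.31), its relative Bub1b 846 and 345 against 1250 and 452, and their partner Mad2l1 886 and 390 against 1188 and 504. In replicate 1 the Flag array was close to Gadd45a for Mcm5 (3639), Rfc3 (370.2), Bub1b (864) and Mad2l1 (905), and the G39A array, on its own slide, was the high one. Rfc3 showed this in replicate 2 as well, within 1 slide, where Gadd45a differed from Flag by -0.01 and G39A by 0.30. For Tk1 and Bub1 the replicate 1 Flag signals of 5231 and 1014 lay between the other 2 arrays. Within each replicate Gadd45a was lower for all of these, by 1.5-fold or less, and limma's adjusted p was 0.484 or more. Cyclin B1 (Ccnb1, 0.28 and -0.12) and Ube2c (0.31 and -0.03) ran the other way in replicate 1. Pcna differed by 0.00 and -0.32 and Cdk1 by -0.14 and -0.26. In bulk RNA, fewer dividing cells and less RNA per dividing cell cannot be told apart.

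**Figure D4:**
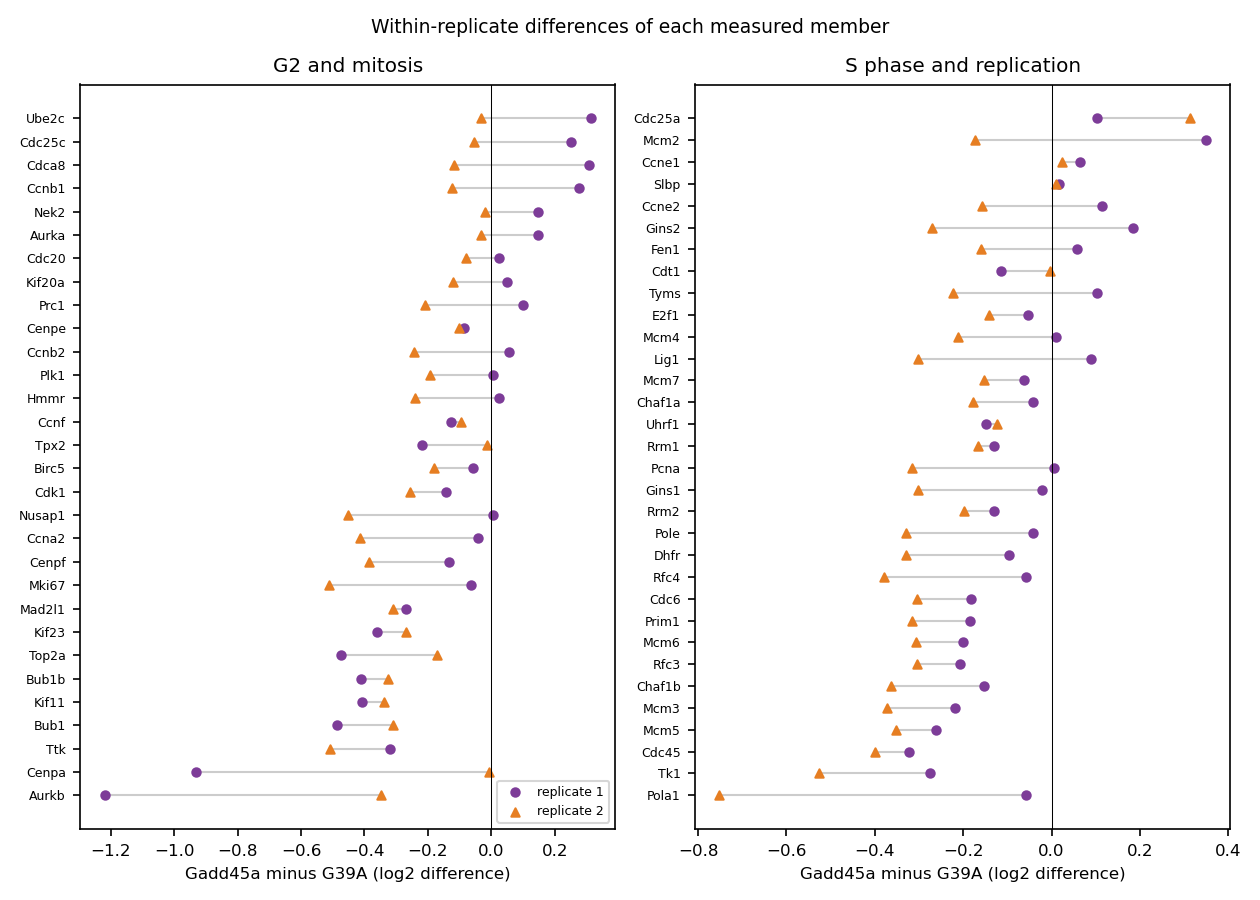
Log2 difference of Gadd45a minus G39A for each measured gene of G2 and mitosis (left, 30 genes) and of S phase and replication (right, 32 genes); purple circles are replicate 1, orange triangles replicate 2. Every triangle on the left lies below 0, while 17 of the 30 circles do, and on the right 21 genes have both points below 0.

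Of 25 measured sterol synthesis genes 15 (60%) were lower in both replicates, against 1 (4%) higher in both, beside 28.7% and 31.7% of all measured genes (medians -0.06 and -0.16). Tm7sf2 gave 10295 and 4404 against 13471 and 6298 (-0.24 and -0.45) and Dhcr7 7082 and 5545 against 9511 and 7715 (-0.27 and -0.42), both sterol reductases, and the Dhcr7 groups did not overlap. Of 26 genes of glycolysis and hypoxia 13 (50%) were higher in both and 2 (7.69%) lower in both, with medians of 0.00 and 0.20. Slc2a1, the main glucose transporter of fibroblasts, gave 4564 and 12613 against 3520 and 10792 (0.53 and 0.29), Slc16a3, the lactate exporter, 1351 and 17848 against 1235 and 12450 (0.28 and 0.58), and Vegfa, a hypoxia-induced angiogenic factor, 2274 and 6633 against 2039 and 5409 (0.31 and 0.36). Genes of the unfolded protein response and ATF4 were higher in both for 19 of 27 (70.4%) and lower in both for 3 (11.1%), with medians of 0.10 and 0.13. Nupr1, a stress-induced chromatin protein, gave 64429 and 34335 against 56550 and 29844 (0.34 and 0.26). In the NRF2 antioxidant list 8 of 24 (33.3%) were higher in both and 6 (25%) lower, and in the respiratory chain 7 of 29 (24.1%) were higher and 7 lower. No member of these lists passed in limma, and no difference between lists was tested.

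DNA methylation and chromatin are functions to which Gadd45a has been tied. Of 22 measured DNA methylation and demethylation genes 4 (18.2%) were higher in both replicates, against 10 (45.5%) lower in both, beside 31.7% and 28.7% of all measured genes, with medians of -0.02 and -0.09. Idh2, the mitochondrial enzyme that makes the cofactor of TET enzymes, gave 1361 and 1025 in Gadd45a and 2384 and 1530 in G39A (-0.66 and -0.52), with no overlap, beside 1426 and 1547 in Flag, which lay close to Gadd45a in replicate 1 and to G39A in replicate 2. Zbtb33, a reader of methylated DNA, differed by -0.68 and -0.17 and Tet3 by -0.47 and -0.09, and for each of these another probe had the opposite sign. Dnmt1, the maintenance methyltransferase, differed by -0.04 and -0.27, and Tdg, the glycosylase that removes oxidised methylcytosine, by 0.17 and 0.13. Among 29 heterochromatin and Polycomb genes 3 (10.3%) were higher in both and 8 (27.6%) lower in both. Ezh2, the Polycomb methyltransferase, gave 987 and 471 against 1362 and 568 (-0.31 and -0.21). Of 22 excision repair genes 5 were higher in both and 3 lower in both, and Neil3, a glycosylase made in S phase, differed by -0.44 and -0.89. The Gadd45 family and its partners (15 genes, 4 higher and 4 lower in both) held Gadd45b at 0.18 and -0.40 by its brighter probe and -0.49 and -0.32 by another, which disagree in replicate 1, and Gadd45g at 0.04 and -0.12.

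The Gadd45a probe itself (chromosome 6, 66985376 to 66985435, mm9) gave 560 and 1870 in the Gadd45a group and 1395 and 2147 in G39A, a difference of -1.16 and -0.14. In Flag it gave 1017 and 2309, so the Gadd45a array was the lowest of the 3 in each replicate, and G39A was above Flag in replicate 1 and below it in replicate 2. Where it lies against the introduced copies was not known here, so it checks no label. Pluripotency genes could hardly be compared: 12 of 35 were measured. Of these 3 (25%) were higher and 2 (16.7%) lower in both replicates, beside 31.7% and 28.7% of all measured genes. Pou5f1, the core factor, was well above background only in replicate 1, at 5153 in Gadd45a and 6363 in G39A, and Nanog and Sox2 were dim on at least 3 of the 4 arrays. Klf4 gave 15458 and 17372 against 16048 and 19703 (0.10 and -0.12). Signals of replicate 2 at 4.22 and 4.40 for Pou5f1 mean that, if SKO includes a mouse copy that this probe reads, the replicate 2 arrays go against their label. Replicate 2 values are therefore those of arrays labelled SKO, with the infection unchecked.

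Of 35 measured fibroblast and matrix genes 9 (25.7%) were higher in both replicates, against 11 (31.4%) lower in both, beside 31.7% and 28.7% of all measured genes (medians -0.06 and 0.03), and Thy1, the fibroblast surface marker that reprogramming cells lose, differed by -0.06 and -0.01, with another probe of the opposite sign. Fn1, the matrix protein fibronectin, gave 2704 and 19408 in Gadd45a and 2337 and 14802 in G39A (0.36 and 0.45), and Prrx1, a mesenchymal homeobox factor, 32228 and 34108 against 31766 and 27713 (0.17 and 0.36), with no overlap. Mmp2, a gelatinase, gave 1803 and 10478 against 2453 and 13690 (-0.29 and -0.32), and Pdgfra, the PDGF receptor of mesenchyme, 186 and 4712 against 268 and 5608 (-0.37 and -0.19). Of 20 smooth muscle and contractile genes 14 (70%) were higher in both and 1 (5%) lower, with medians of 0.14 and 0.16. Ankrd1, a target of YAP and stretch, gave 945 and 3724 against 633 and 2256 (0.73 and 0.78), Des, the filament desmin, 248 and 689 against 184 and 495 (0.58 and 0.54), and Myh11 differed by 0.61 and 0.29.

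Of 20 measured imprinted genes 5 (25%) were higher and 10 (50%) lower in both replicates, beside 31.7% and 28.7% of all measured genes, and none passed the threshold. H19, a fetal growth-restraining RNA, gave 2141 and 53169 in Gadd45a and 3294 and 77125 in G39A (-0.47 and -0.48), Dlk1, a fetal inhibitor of adipogenesis, 671 and 21494 against 931 and 45031 (-0.32 and -1.01), and Mest 840 and 10994 against 1223 and 24213 (-0.39 and -1.08). Gadd45a was the lower array in each replicate for all 3, and the gap between replicates was larger than that between groups. Of 30 WNT genes 6 (20%) were higher and 15 (50%) lower in both, and the lower included the secreted inhibitors Sfrp1, at 6432 and 12668 against 9568 and 22904 (-0.42 and -0.79), and Dkk3, at 415 and 6368 against 659 and 9013 (-0.51 and -0.44). Of 31 TGF-beta and BMP genes 16 (51.6%) were higher and 10 (32.3%) lower in both. Ltbp2, a microfibril protein, gave 5163 and 26197 against 7854 and 42435 (-0.45 and -0.63), Bmp4 differed by -0.24 and -0.66, and Bmp6 by 0.65 and 0.57. Hox genes, the positional code of the embryo, were higher in both for 15 of 29 (51.7%) and lower in both for 6 (20.7%), with medians of 0.05 and 0.10. The distal limb gene Hoxd13 gave 60.3 and 41.7 against 29.8 and 30.2.

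**Figure D5:**
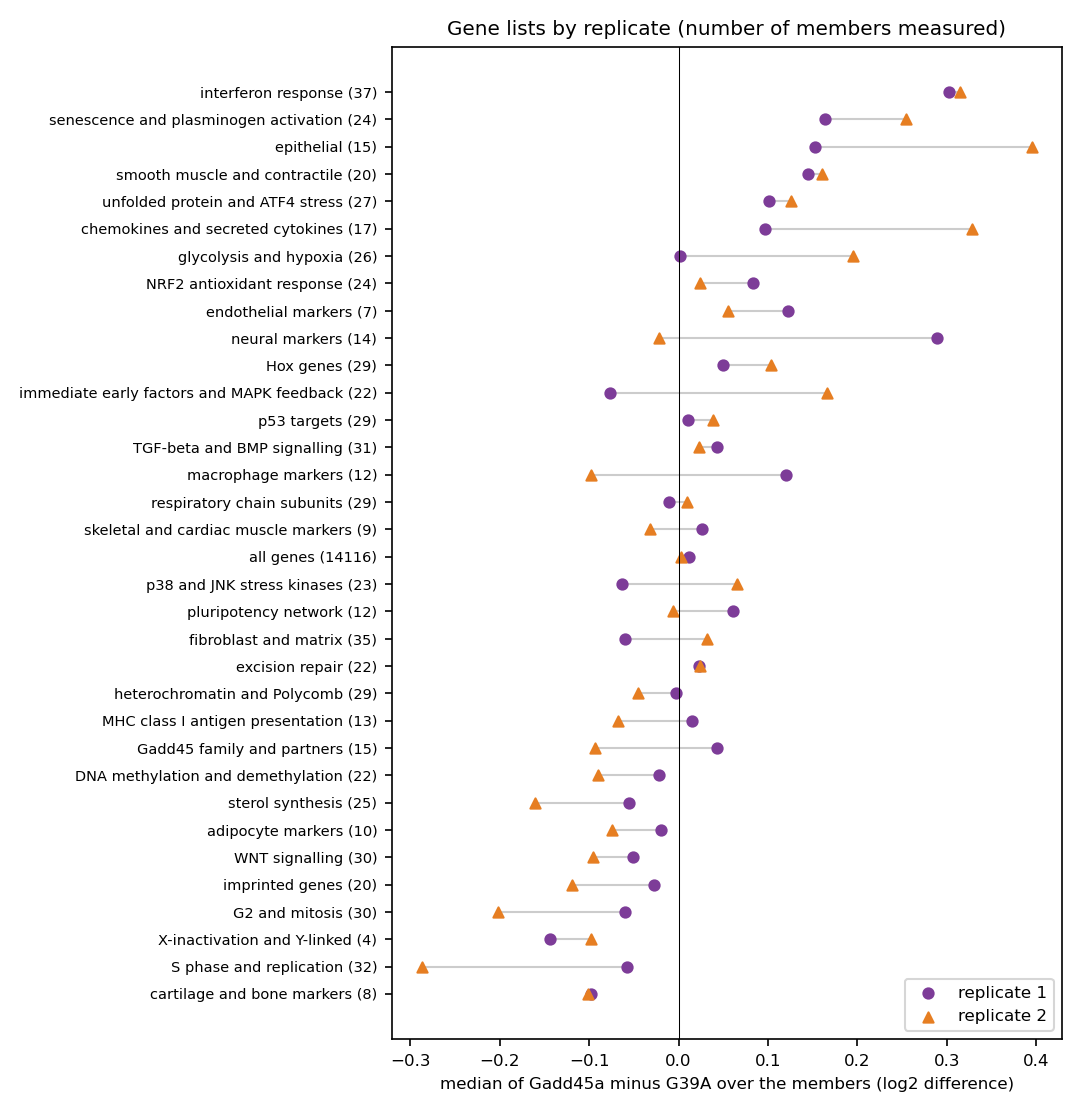
Median log2 difference of Gadd45a minus G39A over the measured members of each gene list (number in parentheses), in replicate 1 (purple circles) and replicate 2 (orange triangles). The interferon list has medians of 0.30 and 0.31 and the S phase list -0.06 and -0.29, beside 0.01 and 0.00 over all genes.

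Markers of cell types that a fibroblast culture could also hold were measured in part. The fibroblast markers Thy1, Vim, Col1a1, Col1a2 and Pdgfrb were bright on all 6 arrays, and Ptprc, Pecam1, Cdh5, Myod1 and Myog, which define blood, endothelial and muscle cells, were well above background on 0. By their brightest probe, the macrophage markers Csf1r and Cd68 and the neural markers Tubb3 and Sox10 were bright on all 6 arrays. Csf1r gave 61.0 to 115.5 and Cd68 186 to 506. Some further markers of blood, endothelial and muscle cells were bright mainly in 1 replicate. The macrophage genes Adgre1, C1qa and C1qc were bright on all replicate 2 arrays, where Flag was the highest (C1qc at 76.9 in Flag, 41.3 in Gadd45a and 40.1 in G39A). The endothelial receptor gene Tek gave 618 in Gadd45a, 736 in G39A and 621 in Flag in replicate 1, and the perinatal myosin gene Myh8 gave 4417, 4415 and 4195 there, while both were dim on the replicate 2 arrays of Gadd45a and G39A. Macrophage markers were measured for 12 of 19 genes, 3 (25%) higher and 3 (25%) lower in both replicates. Over all measured genes the shares were 31.7% and 28.7%, and these stand beside each marker list that follows. The lists are small, and no count was tested. Endothelial markers were measured for 7 of 16 (3 higher, 2 lower), among them Emcn at 183 and 1004 in Gadd45a against 121 and 440 in G39A (0.74 and 1.25) and Plvap at 86.3 and 91.8 against 141 and 174 (-0.55 and -0.86). Neural markers (14 of 22; 5 higher, 2 lower) included Nes, a progenitor filament, at 9075 and 4365 against 6689 and 3683, and Gap43 at 686 and 279 against 584 and 146. Cartilage and bone markers (8 of 19; 0 higher, 4 lower) included Sox9 (-0.54 and -0.16), adipocyte markers (10 of 15; 3 higher, 5 lower) Cebpa (-0.37 and -0.62), and skeletal and cardiac muscle markers (9 of 22; 1 higher, 1 lower) Acta1 (0.28 and 0.31). The summed scaled level of the macrophage markers was 8.06 and 9.32 in Gadd45a and 6.79 and 10.1 in G39A, that of the endothelial markers 4.003 and 7.56 against 4.13 and 7.80, and that of the cartilage and bone markers 16.02 and 12.001 against 16.8 and 16.1. The neural sum was higher in Gadd45a in both replicates, at 60.9 and 47.9 against 53.4 and 38.55, as was the muscle sum, at 10.5 and 27.1 against 10.1 and 23.7, and the adipocyte sum was lower, at 149 and 140.4 against 153 and 151. By members, 11 of the 14 neural markers were higher in replicate 1 and 6 in replicate 2, with medians of 0.29 and -0.02. Of the 9 muscle markers 5 and 4 were higher, with medians of 0.03 and -0.03. The part of such cells in any difference was not tested. Xist, the X-inactivation RNA, gave 5054 and 4908 against 6133 and 6156, with another probe of opposite sign, and the Y-linked Ddx3y was bright on all arrays, at 2004 to 2490.

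Some genes were bright on both arrays of Gadd45a or of G39A and on no array of the other, whatever their level in Flag, and for these a ratio is a lower bound. For each dim array the probe's signal, or that array's lowest signal well above background if larger, was averaged over the group and compared with the mean of the bright arrays. Bright in Gadd45a and not in G39A were 27 genes, 14 with a gene name. Of the 27, 5 were also bright on both Flag arrays and 8 on neither. Ccr9, the receptor of gut-homing lymphocytes, gave 92.1 and 74.9 in Gadd45a and 4.43 and 4.29 in G39A, at least 4.18-fold higher, and was dim in Flag. Myrip, a linker of secretory granules to myosin, was at least 2.34-fold higher and Ppp1r36, a phosphatase regulator that was also bright in Flag (34.5 and 31.0), at least 2.26-fold. The pseudogene Fut4-ps1 and the testis antigen gene Ssx9 were each at least 2.21-fold higher, and Fam183b, a gene of ciliated cells, at least 2.18-fold. Bright in G39A and not in Gadd45a were 97 genes, 44 with a gene name, and 69 of the 97 gave a bound above 1. Of the 97, 51 were also bright on both Flag arrays and 9 on neither. Olfml1, a secreted olfactomedin-like protein, gave 226 and 145 in G39A and 16.2 and 18.4 in Gadd45a, at least 6.28-fold higher in G39A, and was bright in Flag at 31.2 and 149.8. Among those with a gene name, Zfp114, a zinc finger gene, followed at 2.47-fold or more, the membrane scaffold Mpp2 at 2.18, the urinary protein Mup4 at 1.78, the deglycating kinase Fn3k at 1.64 and Crip3 at 1.60. These bounds are group means and do not hold within each replicate. In replicate 1 Mup4 gave 29.1 in G39A and 32.1 in Gadd45a, and Crip3 36.9 and 37.6. For both genes G39A was thus the higher array in replicate 2 alone. Mpp2 gave 34.8 in G39A in replicate 1, under the 35.1 limit of the Gadd45a array there. The excess on the G39A side came with a higher background limit on the Gadd45a replicate 1 array, where the lowest signal well above background was 35.1 and 57.0% of spots passed. On the G39A arrays it was 21.5 and 21.2, with 62.9% and 59.6% of spots passing, and on the Gadd45a replicate 2 array 20.4, with 59.8%. The part of this limit in the counts was not tested.

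The differences of the replicates lay closer together in brighter genes. When the measured genes were ranked by signal into 4 equal parts, the dimmest (median signal 131) had an SD between replicate differences of 0.351, and the brightest (median signal 9560) one of 0.151. The dimmest part held 36 of the 65 higher and 31 of the 46 lower genes, and the brightest 4 and 0. Most of the larger repeated differences were thus those of dim probes.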

How the data were processed

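Per the file headers, the processed intensity deposited for each spot is background-subtracted and not scaled between arrays (Agilent Feature Extraction 10.7, per the submitters' processing notes). Deposited 0 or 1 marks, per the file headers, say whether a spot is well above background, saturated (none was) or an outlier. The authors' deposited value table holds log2 values whose columns have medians of 6.17 each and follow their own array's log2 intensity (lowest r 0.9989), as quantile normalization without centring would give; its making is not given in the labels. It served as an alternative. Probe positions are mm9, per the file headers.

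For each probe, unmarked non-control spots were averaged, and log2 signals were set relative to the array's own 75th percentile. A RefSeq table gave symbols to 27761 of 41174 probes by accession (GRCm38.p6, for names and promoters only), while 13413 kept the file's name. A probe was tested when well above background on both arrays of Gadd45a or of G39A. A gene was represented by its probe bright on most of the 4 arrays, then of highest mean signal, and where another tested probe of a named gene had a mean difference of the other sign this is said beside it. Differences were tested by moderated linear models over all 6 arrays with the replicate number as a block (limma 3.58, R 4.3, 2 residual degrees of freedom, two-sided, Benjamini-Hochberg over 15125 genes, threshold 0.05), after the script had been tested on simulated data. The replicate numbers pair the arrays: for every pair of groups, same-numbered arrays strayed together from their group means (r from 0.937 to 0.949). The number of arrays, 2 per group, limits the precision.

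Named are 12 genes of the question, the 15 each way with the largest smaller-of-the-pair difference of 1 sign, the 6 each way with the largest bound among genes bright in 1 group, and, from each of 33 lists, at most 4 members by lowest p among those of 1 sign in both replicates (829 symbols, 709 tested, 682 measured on all 4 arrays). Identifier-only names were left out of the 15 and of the 6 each way. Genes named outside this rule, such as other list members (Ccl8, Bst2, Mapk14) or paralogs (Lce1g), were picked after their values were seen. Members and lists were chosen with earlier results of these data known, and no set test was run. Single values of a few list members are not reported here. Alternatives changed the block, the slide, the arrays, the dim filter, the probe rule, the background correction, the scaling and the size threshold.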

Additional observations from a re-analysis of the deposited data

How the results depend on the processing

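No gene passed in limma without the replicate block (0, no replicate block, lowest adjusted p = 0.47), with the 4 compared arrays alone, with slide as a fixed block, with no filter on dim probes, with the mean over a gene's probes, with normexp background correction or on genes bright on all 6 arrays. Leaving out each of the 6 arrays in turn gave 0 to 0. Dropping the replicate block, which pairs the arrays by number, changed no call. With slide as a random block 6 genes passed, 4 higher (A830010M09Rik, Gm2861, NAP059350-1 and Prl) and 2 lower (AK081527 and Cdca7l). AK081527 was the 1 gene that passed with quantile normalization, and the 1 gene that passed with the deposited values. These genes were dim on at least 1 of the 4 arrays, and their values partly rest on signals near background.

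The counts of 65 higher and 46 lower genes became 26 and 11 with normexp, whose offset of 50 draws dim signals together, and 8 and 5 at 2-fold. They lay between 64 and 67 and between 40 and 47 under quantile normalization, the deposited values, the mean over probes and the stricter filter. Counts in 1 replicate alone were 301 and 411 in replicate 1 and 296 and 340 in replicate 2. Genes bright in Gadd45a and not G39A numbered 146, and the converse 256, when the mark for a positive and significant signal replaced that for well above background, in place of 27 and 97, and 19 of the 27 and 9 of the 97 were past a bound of 2-fold. Of the named genes' differences 3 were counted as reversed in 1279 comparisons, all with the mean over probes. They were Thy1 at 0.0596, Trp53 at -0.0775 and Bmi1 at 0.0065, the cause being a probe of opposite sign. Part of these comparisons could not reverse. Dropping the replicate block (160 comparisons) leaves each difference unchanged, because every group has 1 array of each replicate number. Dropping 1 replicate cannot reverse a gene of 1 sign in both replicates. The count of reversals also leaves out genes whose replicates differed in sign, which change sign when 1 replicate is dropped. Among them were Gadd45b (0.18 and -0.40), Gadd45g (0.04 and -0.12) and Klf4 (0.10 and -0.12). Of 231 list medians recomputed 46 moved by more than the spread between replicates and 0 reversed a called direction. The 2 arrays per group limit every value.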

Other observations

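Genes that were well above background in only 1 replicate number, in both groups, fall outside the comparison and have a single difference each, with no replicate check. In replicate 1 there were 630 such genes, 390 of them higher in Gadd45a, with a median difference of 0.16. The lowest signal well above background there was 35.1 on the Gadd45a array and 21.5 on the G39A array. The mark thus let through lower signals in G39A than in Gadd45a, and its part in the 390 was not tested. In replicate 2 there were 493, of which 251 were higher, with a median of 0.01. The genes named here were chosen after their values had been seen. In replicate 1, Dmgdh, Bhmt2 and Bhmt, enzymes of betaine and dimethylglycine metabolism whose probes lie near each other on chromosome 13 (94522517, 94426379 and 94390054, mm9), were all higher in Gadd45a. Dmgdh gave 968 in Gadd45a, 285 in G39A and 279 in Flag. Bhmt2 gave 883 in Gadd45a, 245 in G39A and 258 in Flag, and Bhmt 157, 56.4 and 32.7 in that order. The Flag and Gadd45a arrays of replicate 1 shared a slide, so the gap to Flag lies within it. Slc6a12, a betaine transporter bright on all arrays, differed by 0.91 and 1.77 in the replicates.

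Also in replicate 1, Gad2, which makes GABA, gave 468 in Gadd45a and 1280 in G39A. In replicate 2, a pair of chemokines outside the fixed lists were higher in Gadd45a: Ccl12, a monocyte attractant, gave 461 in Gadd45a, 85.8 in G39A and 71.2 in Flag, and Ppbp, a platelet and neutrophil chemokine, 1375, 400.1 and 259.5. Prl8a9, a further placental prolactin, gave 333 in Gadd45a, 72.1 in G39A and 61.9 in Flag. On the other side in replicate 2, Cav3, a muscle caveolin, gave 204 in Gadd45a and 529 in G39A, Angptl1, an angiopoietin-like protein, 158 and 410, and Reg1, a regenerating protein, 140 and 438.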
